A study of Sus scrofa with 41 samples.

Results

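The genes described here encode the proteins of the mitochondrial ribosome, and they were chosen by name: every gene of the pig Ensembl annotation whose symbol starts with MRPL or MRPS followed by a digit. This rule was met by 64 of the 25880 genes counted, 40 MRPL genes of the large subunit and 24 MRPS genes of the small subunit. The samples were psoas major muscle from 41 uncastrated male pigs, 13 Danbred Duroc and 28 Danbred Landrace, fed freely and sampled directly after slaughter at a similar weight. Each pig gave 1 mRNA library and there was no treatment or genetic modification, and the labels give each pig's breed, feed conversion ratio (FCR), age, batch and RIN, the integrity number of its RNA on a scale where higher is better preserved. The median RIN was 8.2 for Duroc (7.0 to 8.8) and 8.0 for Landrace (6.5 to 8.3). The Duroc pigs were 131 to 156 days old and the Landrace pigs 147 to 166 days. The FCR ran from 1.83 to 2.18 for Duroc and from 1.92 to 2.25 for Landrace. The labels give it no unit and the study's text describes it both as feed per gain and as gain per feed, so coefficients are given per unit of the labelled value and not as a direction of feed efficiency.

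Mitochondria keep their own ribosomes, which translate the few messages encoded by the mitochondrial genome, all of them for subunits of the respiratory chain and the ATP synthase. The ribosomal RNAs are transcribed inside the organelle, but every protein of the mitoribosome is encoded in the nucleus, made in the cytosol and imported. The large subunit joins amino acids and holds the exit tunnel at the inner membrane, and the small subunit binds the message and decodes it. Skeletal muscle depends on the respiratory chain for sustained work, and its oxidative fibres are rich in mitochondria. The symbol does not always give the subunit: the proteins of MRPS18A and MRPS30 sit in the large subunit of the mammalian mitoribosome, and they were grouped here by symbol unless stated.

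The libraries held 22188911 to 25954816 counts on genes, with a median of 25243577. Of the 6 skeletal muscle markers 4 were found by symbol, and their summed level was 109648 to 201469 CPM (read counts divided by a scaled library size), so the defining muscle genes were abundant in every pig. Markers of other cells were far below the muscle markers, and the summed level of the 5 fibroblast markers had the widest range among the lists of non-muscle cells, from 556 to 4200 CPM in the Duroc pigs and from 549 to 12328 CPM in the Landrace pigs. Bulk counts cannot tell fewer cells of a type from less RNA per cell.

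The first question for each gene was how much of it the tables hold at all. The counts used here were made without regard to strand, and a read pair that lay on 2 annotated genes was then not counted, whereas the columns counted by strand kept it where the genes lie on opposite strands. For 47 of the 64 genes more than 99% of the pairs in the columns by strand were also in the unstranded column. For 13 of the 64 genes the share was under 90%. Over all genes it was under 90% for 13.7% of the 12845 with a mean of at least 5 unstranded counts. That limit leaves out genes whose pairs were nearly all lost, while the 64 include such genes, so the shares are not of like sets. MRPL43 and MRPL54 had 0 counts in every pig. MRPL24 had 0 to 11 counts, MRPL49 had 0 to 5 and MRPS7 had 0 to 10. The 5 genes nevertheless had a median of 534 (MRPL43), 591 (MRPL54), 715 (MRPL24), 3227 (MRPL49) and 778 (MRPS7) pairs per pig in the columns by strand, so the unstranded counts cannot be read as low expression of these genes. MRPL28 differed from them: it had 3 to 21 counts per pig by either way of counting. These 6 genes did not pass the filter on low counts, which left 58 genes to test, 35 of the large and 23 of the small subunit.

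Among the 58 genes, 8 had a share under 90%, and 4 more had one between 90% and 99%. The share of pairs kept was 4.81% for MRPS18C, 45.6% for MRPL47, 46.0% for MRPS18A, 57.6% for MRPS22, 67.6% for MRPS6, 73.1% for MRPL57, 88.4% for MRPL13 and 89.5% for MRPL40. For the genes with the smallest p for breed the share had close medians in the breeds, 68.4% (Duroc) and 67.9% (Landrace) for MRPS6 and 88.5% and 88.8% for MRPL13. The levels given for these 8 genes leave out the pairs that were not counted.

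**Figure D1:**
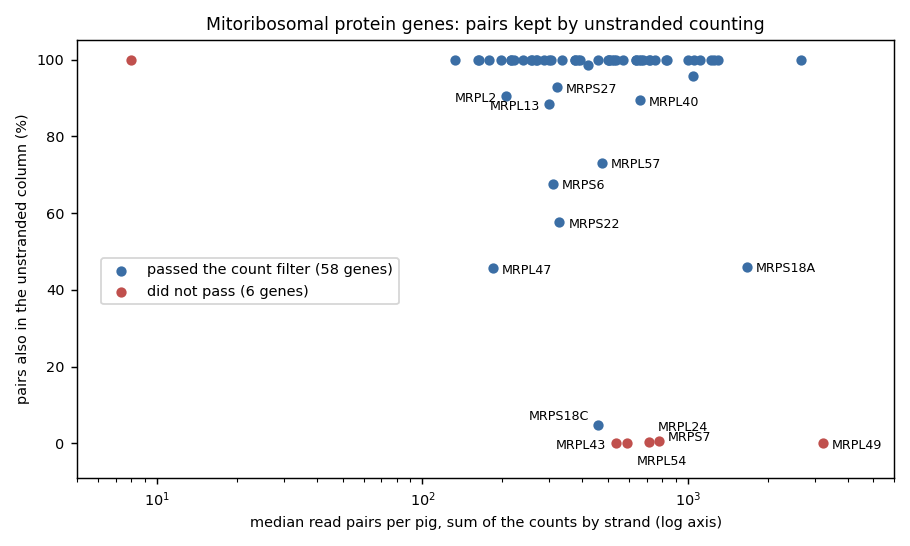
Share of read pairs kept by unstranded counting (vertical axis, %) against the median number of pairs per pig in the columns counted by strand (log axis) for 64 mitoribosomal protein genes, 1 point each. A group of 5 genes lies at or near 0% with 534 to 3227 pairs per pig, MRPS18C lies at 4.81%, and 47 genes lie above 99%.

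Levels are given as CPM with TMM scaling, which divides by a library size corrected for the composition of the library. No transcript lengths were used here, so CPM values rank the genes by reads and not by molecules. The mean CPM over the 41 pigs was 15.8 for the median gene of the 58, and 40 of the 58 lay within a factor of 2 of it. The median over all 11146 genes tested was 8.80 CPM. MRPL37, a large subunit protein found only in mitochondria, had the highest value. It stood at 74.5 to 152 CPM in the Duroc pigs (median 98.2) and 69.4 to 146 CPM in the Landrace pigs (median 102), so the breeds overlapped almost wholly. MRPL12, the protein of the ribosomal stalk that also binds the mitochondrial RNA polymerase, followed with a mean of 56.1 ± 21.1 CPM (SD, n = 41). MRPS15, a small subunit protein with a bacterial homologue, had 51.9 ± 13.1 CPM (SD, n = 41). The values of MRPL12 and MRPS15 differed by less than the spread between pigs. At the other end lay MRPL50 with 5.27 ± 0.711, MRPL47 with 3.50 ± 0.827 and MRPS18C with 0.870 ± 0.292 CPM (SD, n = 41), of which MRPL47 and MRPS18C had under 90% of their pairs counted.

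**Figure D2:**
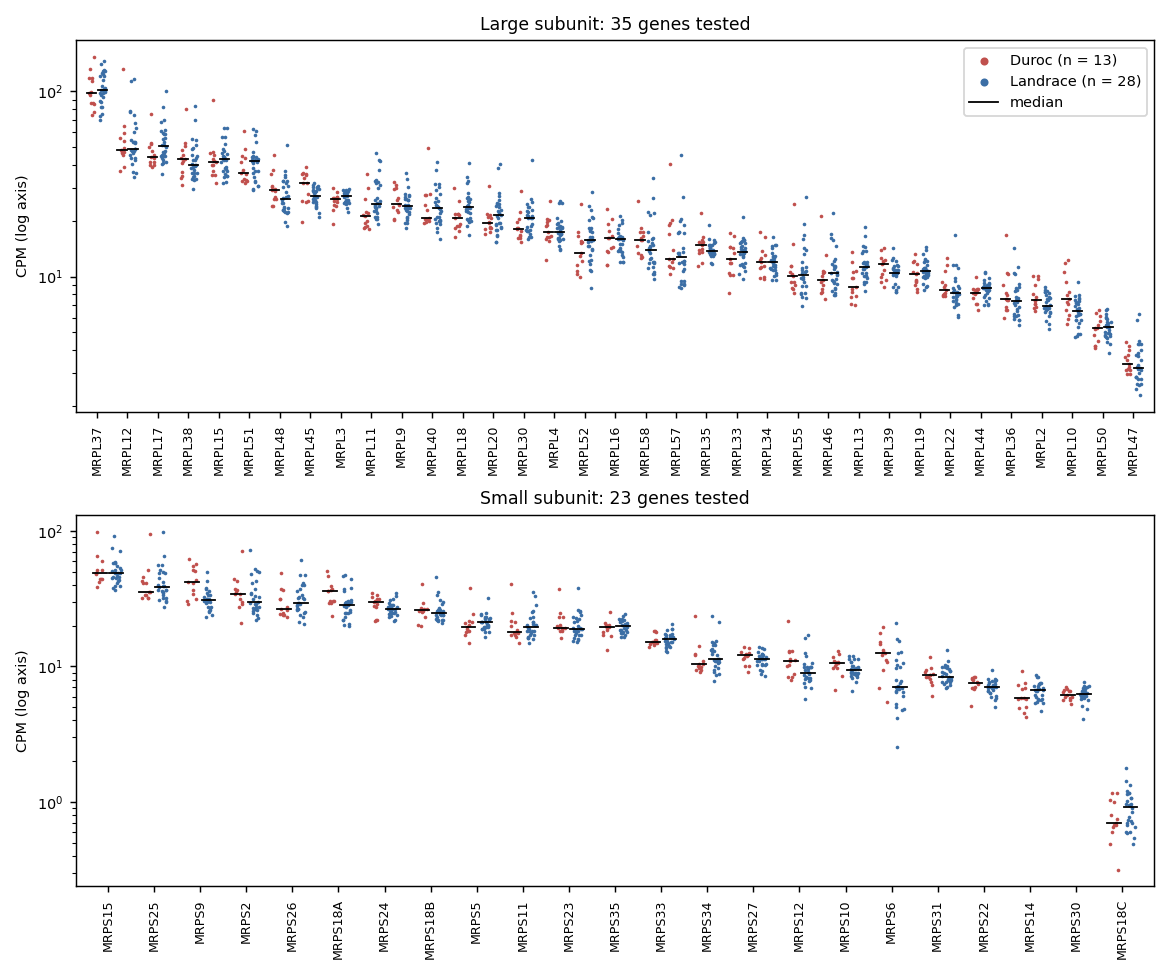
CPM (log axis) of the 58 genes tested in every pig, with the large subunit above and the small subunit below, ordered by mean; points are pigs, Duroc (n = 13) and Landrace (n = 28), and bars are medians. Most genes lie between about the levels of MRPL50 and MRPL12, MRPL37 lies above them and MRPS18C below, and the breeds overlap for every gene.

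The genes differed far more in mean than in spread. The spread between pigs that remained after FCR, RIN, age, breed and batch was taken as the biological coefficient of variation (BCV, the square root of the edgeR dispersion). Its median was 0.134 for the 58 genes and 0.170 for all genes tested, and 47 of the 58 lay under the median of all genes. The 58 genes also had the higher median level, and the comparison was not matched on level. The smallest values were 0.0873 for MRPL3, the homologue of bacterial L3, 0.0965 for MRPL44, which has a fold related to RNase III, and 0.0975 for MRPS22, a small subunit protein found only in mitochondria. MRPL3 ran from 19.3 to 29.9 CPM in the Duroc pigs (median 26.2) and from 22.2 to 29.6 in the Landrace pigs (median 27.1). The largest values were 0.353 for MRPS6, 0.239 for MRPS18C and 0.198 for MRPL57. MRPS18C had only 5 to 40 counts per pig, so counting error is a large part of its spread on the CPM scale, while the BCV is the part estimated beyond it. MRPS6 had 70 to 591 counts and MRPL57 had 216 to 652.

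RIN was the measure that the most genes followed. With FCR, age, breed and batch in the model, 42 of the 58 genes fell with rising RIN and 2 rose (edgeR quasi-likelihood test, Benjamini-Hochberg FDR under 0.1 over all genes tested). Of all 11146 genes 27.9% fell and 23.9% rose, so far more of the mitoribosomal genes than of all genes were called in the falling direction. The median coefficient was -0.36 on the log2 scale per unit of RIN, beside -0.01 for all genes, and 50 of the 58 coefficients were negative. With scaling by library size alone the median of all genes itself moved to 0.30, that of the 58 genes to -0.04, and the calls became 22 falling and 14 rising (7.91% and 55.8% of all genes), with 11 of the 44 genes changing sign; measured from the median of all genes the 58 genes stood at -0.34, against -0.35 with TMM, and none of the 44 changed side. The TMM factor ran from 0.650 to 1.24 and was lowest in the pigs of low RIN (Pearson's r = 0.75 with RIN, Spearman's rho = 0.54, n = 41; r = 0.65 without the 2 pigs farthest from the median RIN). The part of the scaling in the change with RIN was not tested, and the direction is therefore a direction relative to the other genes of the same library.

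The 5 genes with the smallest p for RIN all fell, also with scaling by library size alone. MRPL12 had 37.2 to 131 CPM in the Duroc pigs (median 48.1) and 34.6 to 116 CPM in the Landrace pigs (median 48.9). The 3 pigs with a RIN of 7 or lower held the 3 highest values, 114, 116 and 131 CPM, and none of the 38 other pigs exceeded 78.2 CPM. The coefficient was -0.83 ± 0.081 (SE, edgeR FDR = 7.73e-09), and the level fell by 43.6% per unit of RIN. MRPL57, a small protein of the large subunit (chromosome 11, 1320846 to 1321829, Sscrofa11.1), had the steepest fall. It ran from 10.4 to 40.2 CPM in the Duroc pigs (median 12.5) and from 8.66 to 45.3 in the Landrace pigs (median 12.7). Its 3 highest values were again those of the pigs with the lowest RIN, at 26.9, 40.2 and 45.3 CPM, with 20.3 CPM as the highest of the others. The coefficient was -0.88 ± 0.11 (SE, edgeR FDR = 7.32e-08).

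MRPS11, the homologue of bacterial S11, ran from 14.9 to 40.8 CPM in the Duroc pigs (median 17.9) and from 14.8 to 35.3 CPM in the Landrace pigs (median 19.5). The 3 pigs of lowest RIN stood at 33.1, 35.3 and 40.8 CPM and the others at 28.6 CPM or less. Its coefficient was -0.59 ± 0.062 (SE, edgeR FDR = 1.33e-08). MRPL58, a peptidyl-tRNA hydrolase that became part of the large subunit and frees stalled ribosomes, had a coefficient of -0.76 ± 0.090 (SE, edgeR FDR = 5.63e-08), with 12.6 to 25.5 CPM (median 15.8) in the Duroc and 9.68 to 34.2 CPM (median 14.0) in the Landrace pigs. Its 3 highest values, 25.5, 26.4 and 34.2 CPM, were also those of the 3 pigs of lowest RIN. MRPL40, a large subunit protein, ran from 19.4 to 49.1 CPM in the Duroc pigs and from 16.0 to 41.5 CPM in the Landrace pigs. Its coefficient was -0.57 ± 0.070 (SE, edgeR FDR = 1.03e-07).

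How far these 3 pigs stood apart depended on the scaling. With CPM by library size alone they remained above every other pig for MRPL12 (75.3 CPM or more, against 69.4 or less) and MRPL57 (20.5 or more, against 20.0 or less). For MRPS11 the pig of RIN 6.6, at 22.9 CPM, lay within the range of the others, which reached 25.1. For MRPL58 the pigs of RIN 6.5 and 7.0, at 20.1 and 17.8 CPM, lay within the others, which reached 21.8. For MRPL40 the pigs of RIN 6.5 and 6.6, at 28.8 and 27.0 CPM, lay within the others, which reached 29.1.

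MRPL3 and MRPS22 were the 2 genes that rose with RIN. MRPL3 rose by 0.14 ± 0.050 per unit (SE, edgeR FDR = 0.0238), with the Duroc pig of RIN 7.0 lowest at 19.3 CPM. MRPS22 rose by 0.15 ± 0.066 (SE, edgeR FDR = 0.0607), from 5.07 to 8.40 CPM in the Duroc and 5.00 to 9.41 CPM in the Landrace pigs. Without the 2 pigs of RIN below 7 both missed the threshold at coefficients of like size, 0.14 (edgeR FDR = 0.122) and 0.13 (edgeR FDR = 0.286). Without the 3 pigs of RIN 7 or lower they were 0.05 for each (edgeR FDR of 0.661 and 0.787), and the coefficient of MRPS22 was -0.02 in the sum of the counts by strand.

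**Figure D3:**
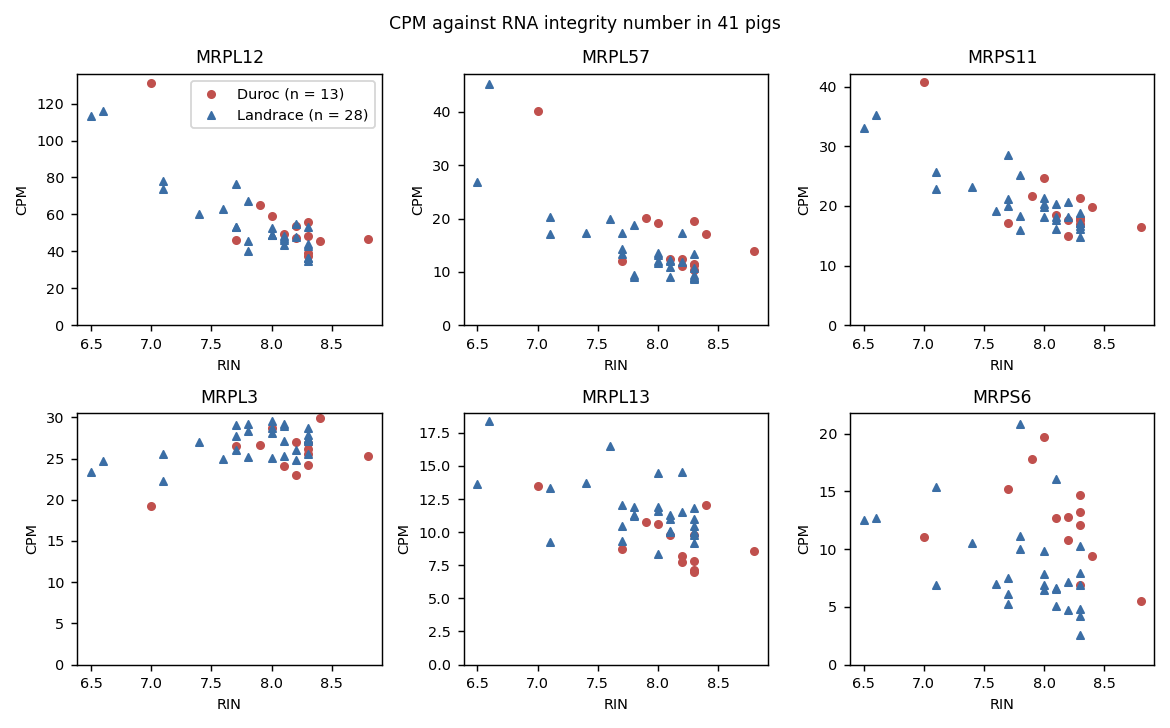
CPM (linear axes from 0) against RIN in 41 pigs for 6 genes, circles for Duroc (n = 13) and triangles for Landrace (n = 28). For MRPL12, MRPL57 and MRPS11 the 3 pigs of RIN 7.0 or lower hold the 3 highest values, MRPL3 has its lowest value in a pig of RIN 7.0, MRPL13 lies higher in Landrace and MRPS6 higher in Duroc pigs at a like RIN; all levels are scaled by TMM, and by library size alone 1 of the 3 MRPS11 values lies within the other pigs.

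The number of calls depended on the 3 pigs of lowest RIN. Without the 2 pigs of RIN below 7 the edgeR fit called 37 genes, all of them falling, with a median of -0.34. In that fit 20.1% of all genes fell and 15.5% rose. Without the 3 pigs of RIN 7 or lower it called 26, again all falling, with a median of -0.27, and 24 of them were among the 44. The calls over all genes dropped as well, to 9.81% falling and 7.45% rising. The Landrace pigs alone gave 37 falling and 0 rising, beside 23.1% and 19.8% of all genes. The Duroc pigs alone gave 0 calls at a median of -0.34, where all genes tested also gave 0 calls; 19 of the 57 genes of the mitoribosome tested there had an unadjusted p under 0.05, 18 of them with a negative coefficient (7.17% of all genes there), and 2 of the 44 called genes had the other sign. A term for a difference in the RIN slope between the breeds called 0 of the 58 genes with edgeR, DESeq2 and limma (0% of all genes with edgeR), and 3 of the 58 had an unadjusted p under 0.05 with edgeR, as did 4.85% of all genes. In the sum of the counts by strand, which let 63 of the genes be tested, 42 fell with RIN, beside 25.4% of all genes, and 12 were higher in Landrace, beside 16.8%. In simple slopes of log2 CPM on RIN, all 44 called genes kept their sign within batch 2 (15 pigs) and batch 5 (11 pigs), and 40 kept it within batch 3 (9 pigs). The genes were called in these same pigs, so the kept signs are not a separate test. Batches 2 and 5 held the 3 pigs of RIN 7 or lower, and batch 3 held none of them.

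Both subunits took part. Of the large subunit genes 27 of 35 fell (77.1%) and 1 rose, with a median of -0.36, and of the small subunit genes 15 of 23 fell (65.2%) and 1 rose, with a median of -0.32. With MRPS18A and MRPS30 placed in the large subunit, 28 of 37 and 14 of 21 fell, with the same medians of -0.36 and -0.32. Of all genes 27.9% fell and 23.9% rose. With scaling by library size alone 14 large subunit genes fell and 8 rose, with a median of -0.047. Of the small subunit genes 8 then fell and 6 rose, with a median of 0.004. In that fit 7.91% of all genes fell and 55.8% rose. With TMM scaling, the genes that did not pass the test for RIN were MRPL37, MRPL33, MRPS35, MRPS10, MRPL45, MRPS9, MRPL39, MRPL50, MRPS33, MRPS30, MRPL10, MRPS18C, MRPS27 and MRPL19, with coefficients between -0.20 and 0.19. Across the 58 genes the RIN coefficient went with the span of the gene on the chromosome (Spearman's rho = 0.47, across genes that are not independent replicates): the 42 genes that fell had a median span of 7222 bases and the other 16 a median of 16074 bases. It also went with the mean level (rho = -0.39 across genes). The part of span or level in the change with RIN was not tested.

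**Figure D4:**
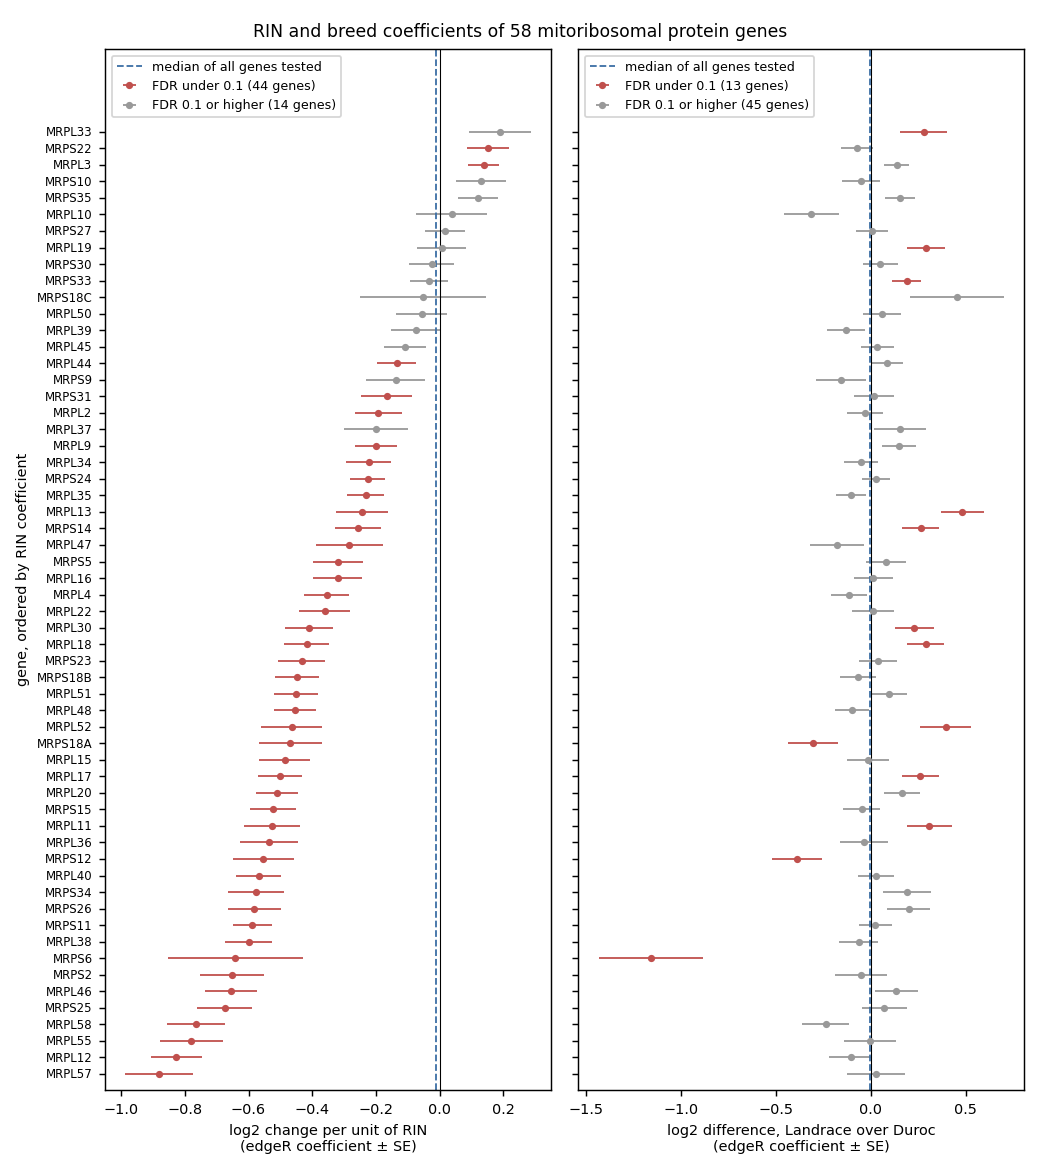
edgeR coefficients ± SE of the 58 genes for RIN (left, log2 change per unit) and breed (right, log2 of Landrace over Duroc), ordered by the RIN coefficient, with the median of all genes tested as a dashed line. The RIN coefficients reach from -0.88 (MRPL57) to 0.19 (MRPL33) and 44 pass an FDR of 0.1, while 13 pass for breed, with MRPS6 at -1.16 and MRPL13 at 0.48; with scaling by library size alone 11 of the 44 RIN coefficients change sign.

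Breed was called for fewer genes. With RIN and the other terms in the model, 10 of the 58 genes were higher in the Landrace pigs and 3 were lower (edgeR FDR under 0.1). Of all genes tested 15.6% were higher and 17.5% lower, so the 10 of 58 that were higher are near the background and the 3 of 58 that were lower are under it. The median coefficient was 0.03 on the log2 scale, beside -0.00240 for all genes. Scaling by library size alone moved the median of all genes to -0.18 and that of the 58 genes to -0.15, and the calls then became 1 higher and 17 lower (4.79% and 32.3% of all genes); none of the 13 genes changed sign.

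The genes higher in Landrace were MRPL13, MRPL18, MRPL19, MRPL52, MRPL17, MRPL11, MRPL33 and MRPL30 of the large subunit and MRPS14 and MRPS33 of the small. MRPL13, a large subunit protein with a bacterial homologue (chromosome 4, 18608919 to 18671523), ran from 6.99 to 13.5 CPM in the Duroc pigs (median 8.73) and from 8.33 to 18.4 CPM in the Landrace pigs (median 11.3). The upper part of the Landrace range lay above every Duroc pig, and the rest overlapped. The difference was 0.48 ± 0.11 (SE, edgeR FDR = 0.00220), a level 39.6% higher in Landrace, and it had the same sign in each of the batches 2 to 5. It passed the test with scaling by library size alone as well, at 0.30 and an FDR of 0.0408.

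MRPL18, a large subunit protein of the family that binds 5S rRNA in bacteria, ran from 16.3 to 30.1 CPM in the Duroc pigs (median 20.7) and from 16.8 to 40.8 CPM in the Landrace pigs (median 23.6). The difference was 0.29 ± 0.098 (SE, edgeR FDR = 0.0269), with the same sign in the 4 batches. MRPL19 is a case where the fit and the plain values part. It ran from 8.28 to 13.2 CPM in the Duroc pigs (median 10.3) and from 8.44 to 14.4 CPM in the Landrace pigs (median 10.7), so the medians were close. The fitted difference was 0.29 ± 0.099 (SE, edgeR FDR = 0.0274), but it fell to 0.19 with an FDR of 0.126 when age was left out. MRPL18 and MRPL19 did not pass with scaling by library size alone (FDR of 0.336 and 0.438).

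The 3 genes lower in Landrace were MRPS6, MRPS12 and MRPS18A. MRPS6, the homologue of bacterial S6 (chromosome 13, 197687906 to 197756773), showed the largest breed difference of the 58. It ran from 5.47 to 19.7 CPM in the Duroc pigs (median 12.7) and from 2.54 to 20.8 CPM in the Landrace pigs (median 7.07). The highest single value was a Landrace pig, so the breeds overlapped over the whole Duroc range. The difference was -1.16 ± 0.27 (SE, edgeR FDR = 0.00237), a change of -55.2%, and the sign was the same in batches 2 to 5, from -0.05 in batch 4 (2 Landrace and 3 Duroc pigs) to -0.998 in batch 2 (12 and 3 pigs). In the sum of the counts by strand, which may hold pairs of an overlapping gene, it was -1.15.

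MRPS12, which lies beside the decoding site of the small subunit, ran from 7.89 to 21.8 CPM in the Duroc pigs (median 11.0) and from 5.76 to 16.9 CPM in the Landrace pigs (median 9.00). The difference was -0.39 ± 0.13 (SE, edgeR FDR = 0.0271), but batch 3, with 2 Duroc pigs, had the other sign. MRPS18A, of which 46.0% of the pairs were counted, differed by -0.30 ± 0.13 (SE, edgeR FDR = 0.0871). Its within-batch difference was -0.66 in batch 2 and between -0.09 and 0.01 in the other 3. Over the 13 called genes, 9 had the sign of the fit in all of batches 2 to 5 and 4 had it in 3 of them. The genes were called in these same pigs, so the shared signs are not a separate test. Batch 1 held 1 pig. Slaughter batches 2 to 5 together, without batch 1, gave the same 13 calls.

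In the plain values the gap in mean level between the subunits differed between the breeds by a small amount. The fitted breed coefficients had close medians, 0.0283 for the large and 0.0233 for the small subunit genes. The plain gap is built from means over genes, so single genes with large breed differences weigh on it. For Duroc, the mean log2 CPM of the large subunit genes exceeded that of the small by 0.13 ± 0.063 (SD, n = 13), with pigs between 0.05 and 0.27. For Landrace the excess was 0.20 ± 0.053 (SD, n = 28), with pigs between 0.09 and 0.36, so the breeds overlapped. Only the difference between pigs can be read from this measure, since its zero depends on the lengths of the genes. The Landrace mean was the higher in each of batches 2 to 5, by 0.18 against 0.11, 0.19 against 0.06, 0.21 against 0.12 and 0.22 against 0.15. Without the 3 pigs of RIN 7 or lower the means were 0.19 and 0.11, and with MRPS18A and MRPS30 in the large subunit they were 0.17 and 0.11. This mean was not tested as a score. Among single genes, 8 of the 35 of the large subunit and 2 of the 23 of the small were called higher in Landrace, and 0 and 3 were called lower, where 15.6% of all genes were higher and 17.5% lower. With scaling by library size alone these counts were 1 and 0 higher and 10 and 7 lower, where 4.79% of all genes were higher and 32.3% lower. The large subunit was not tested against the small. The measure also fell with RIN (r = -0.52, rho = -0.38, n = 41), but less so without the 2 pigs farthest from the median RIN (r = -0.34, rho = -0.28). Within batches r ran from -0.75 (batch 5) to -0.06 (batch 3, rho = 0.07), and in the Duroc pigs r was -0.35 and rho 0.12.

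The genes rose and fell together between pigs, yet not all of them. Over the 1653 pairs of the 58 genes the median Pearson correlation of log2 CPM across the 41 pigs was 0.408, beside -0.00423 over all pairs of genes tested. After FCR, RIN, age, breed and batch were removed it was 0.257, beside -0.005. All pairs share the same libraries and scaling factors, and with scaling by library size alone the median was 0.205. No value over all pairs of genes is given for that scaling, so 0.205 has no background beside it. In the adjusted values 20.9% of the pairs exceeded 0.5 and 20.1% were negative. The first principal component held 50.5% of the variation before and 35.2% after adjustment. Within the large subunit the median adjusted correlation was 0.325, within the small 0.182 and between the subunits 0.243, so pairs across subunits lay between the others.

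MRPL40 (median correlation with the other 57 genes 0.735), MRPS15 (0.730) and MRPS25 (0.728), a small subunit protein found only in mitochondria, were the most typical of the group. MRPS25 ran from 31.9 to 95.3 CPM in the Duroc and from 27.5 to 97.8 CPM in the Landrace pigs. MRPS22 (-0.358), MRPS10 (-0.308) and MRPL3 (-0.200) ran against it. After adjustment MRPS22 and MRPL3 were near 0, at -0.022 and -0.015, while MRPS10, the homologue of bacterial S10, stayed negative at -0.240. MRPS10 ran from 6.71 to 12.9 CPM in the Duroc pigs (median 10.6) and had a median of 9.37 CPM in the Landrace pigs, with 6.60 CPM as the lowest. The lowest value in each breed was that of a pig with a RIN of 7 or lower, though the pig of RIN 6.5 stood higher, at 8.61 CPM.

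The closest pairs after adjustment were MRPL38 with MRPS2 (r = 0.874) and MRPL12 with MRPL57 (0.844). The most negative was MRPS10 with MRPS25 (-0.519). MRPS11 and MRPL46 are neighbours on chromosome 1, at 191310547 to 191321951 and 191321990 to 191331320 in the RefSeq annotation of Sscrofa11.1, with a gap of 38 bases between them. Their correlation was 0.857, and 0.644 after adjustment, which ranked 137 of the 1653 pairs. MRPL46, a large subunit protein, fell with RIN at -0.65 ± 0.081 (SE, edgeR FDR = 1.06e-07), close to MRPS11.

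**Figure D5:**
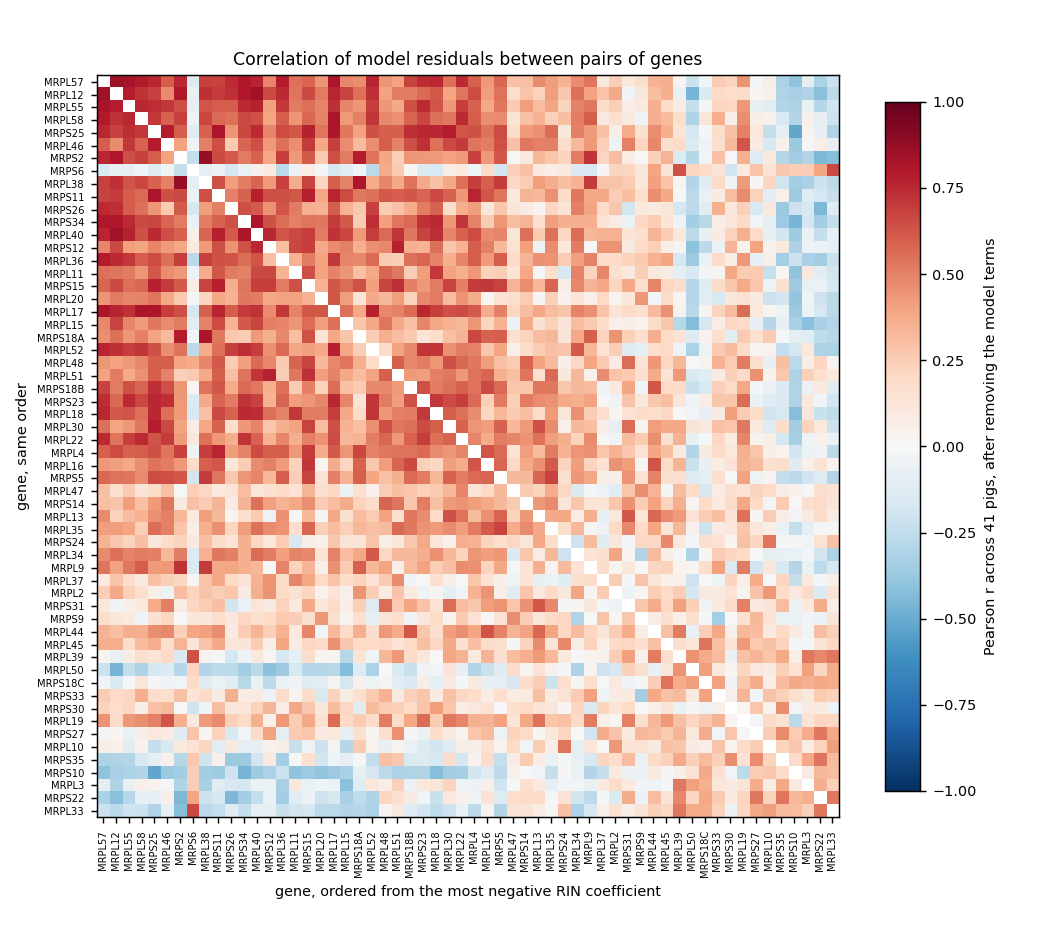
Pearson correlation across 41 pigs of each pair of the 58 genes after FCR, RIN, age, breed and batch were removed, with genes in both directions ordered from the most negative RIN coefficient (MRPL57) to the most positive (MRPL33). Red is positive and blue negative; the block at the upper left holds the genes that fell most with RIN, and rows such as MRPS10, MRPL50 and MRPS6 stand apart from it. The median over all pairs is 0.257.

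In the plain values the mean log2 CPM of the 58 genes ran from 3.68 to 4.55 and went with RIN (r = -0.72, rho = -0.61, n = 41; r = -0.59 without the 2 farthest pigs; r = -0.81, -0.79 and -0.73 in batches 2, 3 and 5). With scaling by library size alone the same mean had r = 0.24 with RIN over all pigs, and the sign differed between batches, with r = -0.12, -0.38 and 0.55 in batches 2, 3 and 5. The share of all counts taken by the genes was 0.107 to 0.143%, with r = -0.10 over all pigs and -0.45, -0.60 and 0.05 in batches 2, 3 and 5. What remained after adjustment went with the fibroblast markers (rho = -0.46 with their summed level, n = 41), which were lower where the 58 genes were higher. The marker sums themselves were not adjusted for the terms of the model. The rho was -0.29 with the leukocyte, -0.20 with the endothelial, -0.08 with the adipocyte, 0.12 with the slow fibre, 0.21 with the fast fibre and 0.05 with the skeletal muscle markers. Before adjustment the mean of the 58 genes had r = -0.54 with the fibroblast, -0.45 with the leukocyte, -0.41 with the adipocyte, -0.36 with the endothelial, 0.47 with the slow fibre, 0.59 with the fast fibre and 0.49 with the skeletal muscle markers (n = 41). These values are Pearson's r and those after adjustment Spearman's rho, so the lists do not show what the adjustment changed. All of these share the libraries and their scaling, and the part of the marker genes in the co-variation and in the change with RIN was not tested.

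FCR and age gave no calls with edgeR. For FCR 0 of the 58 genes and 0% of all genes passed. At an unadjusted p under 0.05, 17 of the 58 had a negative coefficient, as did 4.41% of all genes, and 1 had a positive one, as did 4.27% (MRPS35, chosen for mention after its value was seen). With scaling by library size alone these counts were 3 and 2, with 2107 of all 11146 genes at such a p. With TMM scaling the negative ones numbered 11 without the 3 pigs of RIN 7 or lower, 5 with RIN left out of the model, 1 in the Landrace pigs alone and 7 in the Duroc pigs alone. The shares of all genes in those fits, in the same order, were 3.57%, 1.85%, 3.01% and 2.11%. The median coefficient was -0.60 per unit of FCR, or -0.01 with scaling by library size alone, and measured from the median of all genes it was -0.63 and -0.62. With TMM scaling it was -0.26 in the Landrace pigs alone and -0.89 in the Duroc pigs alone. DESeq2 called 1 gene, MRPS11 at an FDR of 0.0698, where it called 5 of 10765 genes in all (0.0464%), and limma called 0. The edgeR coefficient of MRPS11 was -0.14 ± 0.032 per 0.1 of FCR (SE, edgeR FDR = 0.284). MRPL45, which lies near the exit tunnel at the inner membrane, had a coefficient of -0.11 ± 0.033 (SE, edgeR FDR = 0.473) and MRPL51 one of -0.12 ± 0.035 (SE, edgeR FDR = 0.523). MRPL45 stood at 19.8 to 38.9 CPM in the Duroc and 21.0 to 31.9 CPM in the Landrace pigs. The FCR slope was not called as different between the breeds for any of the 58 genes by edgeR, DESeq2 or limma (0% of all genes with edgeR), with 4 of the 58 at an unadjusted p under 0.05 with edgeR, as were 5.22% of all genes.

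Age was called for 0 of the 58 genes by edgeR, DESeq2 and limma, while 1.76% of all genes were called by edgeR, and 2 of the 58 had an unadjusted p under 0.05, fewer in proportion than the 16% of all genes. The smallest p was that of MRPS9, a small subunit protein with a bacterial homologue, at -0.025 ± 0.010 per day (SE, edgeR FDR = 0.222). MRPS9 ran from 28.7 to 61.8 CPM in the Duroc pigs (median 42.0) and from 23.2 to 49.5 CPM in the Landrace pigs (median 31.1). This plain gap between the medians did not pass for breed, with a fitted difference of -0.16 ± 0.13 (SE, edgeR FDR = 0.410), and the Duroc pigs were also the younger ones. MRPL9 and MRPL19 followed with -0.015 ± 0.0071 (FDR = 0.304 by edgeR) and -0.016 ± 0.0079 per day (FDR = 0.319 by edgeR).

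Other genes of mitochondrial translation were counted from a list of 52 symbols, of which 47 were found and 46 tested. For RIN 19 of the 46 fell and 7 rose, beside 27.9% and 23.9% of all genes, with a median of -0.12. Of the 5 further mitoribosomal proteins whose symbols do not start with MRP, DAP3, CHCHD1 and AURKAIP1 fell, while PTCD3 (0.13, edgeR FDR = 0.126) and GADD45GIP1 (-0.19, edgeR FDR = 0.391) did not pass. AURKAIP1 of the small subunit fell by 0.65 ± 0.081 per unit (SE, edgeR FDR = 1.31e-07). The assembly GTPase MTG1 fell by 0.69 ± 0.099 (SE, edgeR FDR = 1.12e-06) and the assembly factor MALSU1 by 0.49 ± 0.072 (SE, edgeR FDR = 1.28e-06). Of the 10 translation factors 4 fell and 2 rose, of the 26 genes for assembly and rRNA handling 12 fell and 3 rose, and of the 5 genes of mitochondrial transcription 0 fell and 2 rose, TFAM and POLRMT. For breed 5 of the 46 were higher and 5 lower in Landrace, both under the shares of all genes (15.6% and 17.5%). NOA1, a GTPase of mitoribosome assembly, was higher by 0.56 ± 0.12 (SE, edgeR FDR = 0.000599). MRM3, which methylates the large rRNA, differed by -0.40 ± 0.099 (SE, edgeR FDR = 0.00323) and GFM2, a factor of ribosome recycling, by -0.76 ± 0.19 (SE, edgeR FDR = 0.00349). For FCR and age 0 of the 46 passed with edgeR, with 5 and 0 at an unadjusted p under 0.05, where 8.68% and 16% of all genes were.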

How the data were processed

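Per the labels and methods, trimming used Trimmomatic 0.39 and alignment to Sscrofa11.1 used STAR 2.7.1a, and the authors deposited STAR's raw counts of read pairs per Ensembl gene. The unstranded count column was used, since the methods call the libraries unstranded, and the 2 deposited count columns by strand served to see which pairs were lost and, summed, as an alternative. Each pig is 1 library and a replicate of its breed. No library was a repeat of another (lowest chi-squared per degree of freedom 16.1). Counts were filtered with filterByExpr (minimum count 10) and fitted with the quasi-likelihood test of edgeR 4.0.16 (legacy form, TMM) in R 4.3.3, with FCR, RIN, age, breed and batch as terms. FDR values are Benjamini-Hochberg over all 11146 genes, called under 0.1. Alternatives used DESeq2 1.42.0 and limma 3.58.1. The log2 values have a prior count of 2. The fits were tested on simulated data. SE is the coefficient over the square root of F.

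Named genes are the 5 with the smallest p for RIN and for breed, the 3 for FCR and for age, the 3 highest and lowest in level, spread and median correlation, MRPS11, and the 3 accessory genes with the smallest p for RIN and breed; MRPL46 and those named in a count were added. The members and lists were chosen with earlier results of these data known. Symbols matched 14857 of the gene identifiers; all 64 genes matched RefSeq by symbol, which gave the coordinates. FCR was used as labelled, with no unit. Sequences and transcript lengths were not used here.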

Additional observations from a re-analysis of the deposited data

Results flagged for a closer look

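The following values come from counts outside the comparisons of the report. In the columns counted by strand, 5 genes that hold almost no unstranded counts had a median of 715 (MRPL24), 534 (MRPL43), 3227 (MRPL49), 591 (MRPL54) and 778 (MRPS7) read pairs per pig. Fitted on the sum of the columns by strand, which may hold pairs of an overlapping gene, all 5 fell with RIN, by 0.58 (MRPL24), 0.21 (MRPL43), 0.46 (MRPL49), 0.35 (MRPL54) and 0.33 (MRPS7) on the log2 scale per unit (edgeR FDR of 0.000932 or lower). In that fit 25.4% of all genes fell with RIN. MRPL49 alone of the 5 passed for breed, at 0.29 higher in Landrace (edgeR FDR = 0.00326), as did 16.8% of all genes in that direction. Which gene of an overlapping pair gave these pairs cannot be told apart.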

How the results depend on the processing

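The counts of genes called stayed within 1.5 times those of the report with DESeq2, limma, library size, other filters, batch as a number, a term left out, the Landrace pigs alone and the 2 pigs of RIN below 7 left out, except that DESeq2 called 1 gene for FCR and batch as a number gave 1 for age (MRPL47), against 0. Some alternatives were chosen after seeing the data: the sum of the counts by strand, the subunit of MRPS18A and MRPS30, and the fits of RIN without the 3 pigs of RIN 7 or lower, which called 26 genes, and with the Duroc pigs alone, which called 0, against 44. The shared calls were 42 with DESeq2 and 43 with limma for RIN, and 13 and 12 for breed. With scaling by library size alone 24 of the 44 RIN calls and 4 of the 13 breed calls were kept with the same sign; the medians of the coefficients moved to -0.0425 for RIN, -0.15 for breed and -0.0126 for FCR. The coefficients of the genes with the smallest p (5 each for RIN and breed, 3 each for FCR and age) kept their sign under the alternatives computed for them, while MRPS22 changed sign for RIN in the sum of the counts by strand. No paired analysis was possible because the replicate numbers follow accession order and pair no pigs. Leaving out each pig in turn was not done with 13 and 28 pigs a group. Motifs and levels per length were not run. Genes with few counts, such as MRPS18C, limit what can be detected.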
